A study of Mus musculus with 6 samples.

Results

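The genes described here are 39 genes of the DNA replication machinery, followed in aortas of B6 mice, untreated ApoE-/- mice and vitamin E-treated ApoE-/- mice. The members were chosen by name, as the probe sets of a whole-genome array that are annotated to 1 of 39 listed gene symbols. Of these genes, 38 had at least 1 probe set with a single symbol, out of 18193 genes with such a probe set on the array, and together they held 83 of 45037 probe sets. Chaf1a was not analysed here. Aortas were from 3 groups with 2 arrays each, and every array had been hybridised with RNA pooled from 3 whole aortas. B6 mice (C57BL/6J) carry intact Apoe and were untreated. ApoE-/- mice, which lack apolipoprotein E and become hypercholesterolemic, were kept on the same B6 background and were either left untreated or given vitamin E, an antioxidant, at 2000 IU per kg of diet for 7 months. All groups were fed an AIN-93-based chow with 7% fat and 0.15% cholesterol and were 32 to 34 weeks old when the aortas were taken and freed of fat. The disruption of Apoe is in the germ line and thus in every cell, and plaque-bearing vessels were not separated into cell types.

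Before a cell copies its genome, the origin recognition complex with Cdc6 and Cdt1 loads the ring-shaped Mcm helicase onto DNA. Cdc45, the GINS complex and Mcm10 turn this ring into a moving helicase, primase and DNA polymerases copy the strands, the sliding clamp Pcna holds the polymerases in place, and ligase seals the fragments of the lagging strand. Transcripts of many of these genes rise at entry into S phase under E2F factors, so that in tissue the genes are widely used as a sign of dividing cells. In the adult artery wall few cells divide, whereas lesional macrophages, modulated smooth muscle cells and lymphoid cells can.

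The disrupted gene followed the labels. Signal intensity of Apoe was 5209 and 5432 on the B6 arrays, 93.2 and 57.4 on the untreated ApoE-/- arrays and 40.5 and 45.3 on the vitamin E-treated ApoE-/- arrays. The smooth muscle actin gene Acta2, which defines the aortic media, had a signal intensity between 8791 and 11060 on all 6 arrays. Arrays of 1 group correlated with each other at 0.984 to 0.992 across probe sets. The B6 arrays stood apart in the labelling controls. The poly-A control transcripts had signals 2.88 to 5.60 times those of untreated ApoE-/- arrays over 12 probe sets, while the hybridization controls differed by at most 1.24 times over 9 probe sets. On vitamin E-treated ApoE-/- arrays the poly-A controls read 1.08 to 1.81 times those of untreated ApoE-/- arrays. For Gapdh, the 3′ probe set read 1.34 to 1.35 times the 5′ one on B6 arrays, 1.03 to 1.06 times on untreated and 1.15 to 1.24 times on vitamin E-treated ApoE-/- arrays. For beta-actin this ratio was 2.005 to 2.06 on B6, 1.78 to 1.88 on untreated and 1.64 on both vitamin E-treated ApoE-/- arrays. The 2 ApoE-/- groups thus stood in opposite orders for these 2 genes. The part of these differences in the results was not tested. The arrays of vitamin E-treated aortas were deposited later than the others, so that a batch and the vitamin E treatment cannot be told apart.

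Upstream sequence of 3 members is shown with the E2F words that were searched for, since E2F factors are the best known regulators of this gene set. A window of 250 bases before to 50 bases after the start site was read from RefSeq (GRCm38.p6) for 33 of the 39 genes. Gins1, Gins2, Mcm4, Pole, Prim2 and Rfc2 had no entry. The words TTTCCCGC, TTTCGCGC, TTTGCCGC and TTTGGCGC were searched on both strands, and at least 1 of them was present in 13 of 33 members (39.4%), against 704 of 27025 genes with a window (2.60%). The members with a word were Mcm3, Mcm5, Mcm6, Mcm7, Cdc6, Cdt1, Orc1, Pola1, Pold1, Pole2, Rfc3, Lig1 and Uhrf1. CCAAT was present in 63.6% of members and 41.1% of all genes, and TTTGAA, the CHR word of mitotic genes, in 9.09% of members and 20.2% of all genes. Among the mitosis genes described further below, the shares were 13.0% for E2F words, 87.0% for CCAAT and 73.9% for the CHR word. Mcm5 and Mcm6 are shown because each holds words from 200 to 81 bases before the start site, outside any gene body. Cdc6, Pola1, Mcm7 and Uhrf1 also hold words at this distance, in stretches that overlap a gene body, and are not shown. In the stretches of Mcm5 and Mcm6 the words overlap on opposite strands. Rrm2, whose change from B6 to untreated ApoE-/- aortas was the second largest of all members, is shown because its window holds none. Each stretch runs from 200 to 81 bases before the start site, outside any gene body of the annotation, with E2F words in capitals and the strand of the gene shown 5′ to 3′.
Mcm5, chr8:75109309-75109428, plus strand: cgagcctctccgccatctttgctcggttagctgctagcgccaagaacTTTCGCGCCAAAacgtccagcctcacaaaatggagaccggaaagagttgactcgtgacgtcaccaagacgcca
Mcm6, chr1:128359786-128359905, minus strand: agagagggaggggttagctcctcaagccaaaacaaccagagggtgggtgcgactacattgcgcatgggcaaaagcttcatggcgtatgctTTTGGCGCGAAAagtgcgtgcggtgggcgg
Rrm2, chr12:24708054-24708173, plus strand: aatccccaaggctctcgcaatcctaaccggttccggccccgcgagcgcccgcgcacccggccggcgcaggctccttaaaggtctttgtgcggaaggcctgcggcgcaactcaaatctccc
A word is a match of letters and no measured binding. The capitals in Mcm5 are TTTCGCGC read on the shown strand joined to TTTGGCGC read on the opposite strand, and those in Mcm6 are the same pair in the reverse order. Among the members with a word, 12 were tested, with a median log2 fold change of 0.78 between untreated ApoE-/- and B6 aortas (range 0.04 to 2.30), and the 18 tested members with a window and no word had a median of 0.72 (range −0.16 to 1.92). In this comparison 11 of 12 genes with a word and 13 of 18 without were called higher (21.2% of all genes tested). In vitamin E-treated versus untreated ApoE-/- aortas 8 of 12 and 4 of 18 were (8.18% of all genes tested). Both sets include genes that reached the minimum signal for testing only in groups in which they were higher. The difference between the sets was not tested.

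Most replication genes rose from B6 to untreated ApoE-/- aortas, called the first step in the following, and fewer rose from untreated to vitamin E-treated ApoE-/- aortas, the second step. Rrm2, Uhrf1, Cdc6, Mcm3 and Dut stood among the genes with the largest rise, while Rpa1, Rpa3 and Orc6 differed by −0.16 to 0.27 on the log2 scale and did not pass in this first step. Each gene is given by its brightest probe set. A gene was tested where its mean signal intensity reached 100 in at least 1 group, which held for 35 of the 38 genes, and was called at an adjusted p under 0.05 from limma (Benjamini-Hochberg over all 17909 probe sets tested). In untreated ApoE-/- versus B6 aortas, 27 of 35 genes rose, none fell and 8 did not pass, with 21.2% of all 10646 genes tested called higher and 20.8% called lower. At an unadjusted p under 0.05, limma gave 28 members, all of them higher. Of the members, 10 rose at least 2-fold, as did 3.64% of all genes. In 32 members both untreated ApoE-/- arrays lay above both B6 arrays, an arrangement found in 39.6% of all genes, and in 1, Rpa1, both lay below (37.4% of all genes). The median log2 fold change of the members was 0.75 and that of all genes 0.02. Of the 35 genes, 21 reached a mean of 100 in all 3 groups, and 16 of these 21 rose. The other 14 passed only through the groups in which they were higher, so that their direction is in part set by the filter. Gins2, Tyms and Orc1 were not tested. Gins2, a subunit of the GINS complex, had 36.7 and 8.02 on B6 arrays, 97.9 and 88.9 on untreated and 106 and 93.5 on vitamin E-treated ApoE-/- arrays, and its highest group mean of 99.9 was just under the minimum.

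In vitamin E-treated versus untreated ApoE-/- aortas, 14 of 35 genes rose, none fell and 21 did not pass, with 8.18% of all genes called higher and 7.65% called lower. Of the 21 genes with a mean of 100 in all 3 groups 11 rose, and of the 14 tested only through some groups 3 rose. All rises were between 1.22 and 1.61 times, while 1.43% of all genes rose at least 2-fold. In 28 members the vitamin E-treated arrays both lay above the untreated ones (30.2% of all genes), and in 1, Pold2, both lay below (29.5% of all genes). The median log2 fold change was 0.34, and that of all genes was 0.00 to 2 decimals. At an unadjusted p under 0.05 limma gave 22 members, of which 1, Pold2, was lower. Without untreated ApoE-/- replicate 1 only 4 genes were called, without untreated ApoE-/- replicate 2 only 3, and without the filter on low values, with 45037 probe sets tested, also 3. Mcm7, Cdt1 and Rrm2 were called whichever of the 6 arrays was left out. In vitamin E-treated ApoE-/- versus B6 aortas, 33 of 35 genes rose, 17 of them at least 2-fold, and none fell, also among the 34 with an unadjusted p under 0.05. Of all genes 21.1% were called higher, 21.7% lower and 3.70% at least 2-fold higher. Rfc4 and Rpa1 did not pass. Of the 21 genes with a mean of 100 in all 3 groups 19 rose. The 14 tested only through some groups all rose, and their direction is in part set by the filter. The groups of 34 members did not overlap, with the vitamin E-treated arrays higher, as in 36.2% of all genes. The 3 comparisons share arrays with each other, and each is given with its own values. In 25 of 35 genes, both untreated ApoE-/- arrays lay above both B6 arrays and both vitamin E-treated ApoE-/- arrays above both untreated ones, an order seen in 9.57% of all genes. This count, like those of groups without overlap, includes genes tested only through some groups. With 2 arrays in each group the smallest two-sided p of an exact permutation test is 0.333, and the calls draw on the variance that limma pools over the whole array. Since each array is a pool, no value is given for a single mouse. In RNA of whole aortas, more cells of a type and more RNA per cell cannot be told apart.

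**Figure D1:**
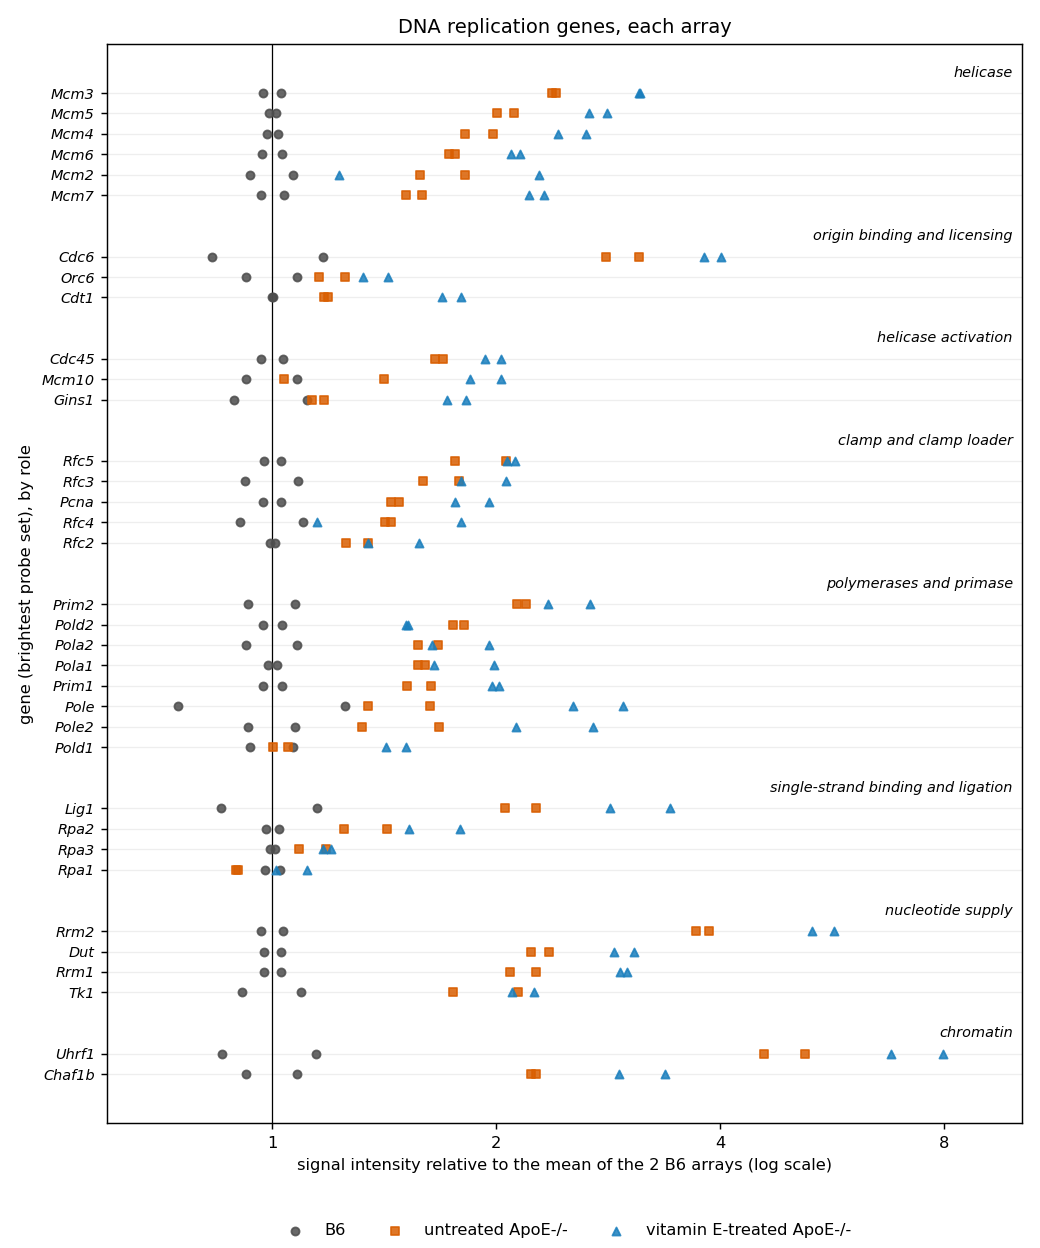
Signal intensity of the 35 tested DNA replication genes on each of the 6 arrays, divided by the mean of the 2 B6 arrays, on a log axis; genes are grouped by role. B6 arrays (circles) lie near 1, and in 25 of 35 genes the untreated ApoE-/- arrays (squares) lie above them and the vitamin E-treated ApoE-/- arrays (triangles) above both.

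All 6 genes of the Mcm helicase rose in untreated ApoE-/- versus B6 aortas, and 5 of 6 rose again in vitamin E-treated versus untreated ApoE-/- aortas. Mcm2 to Mcm7 encode the subunits of 1 hexameric ring, which is loaded at origins and unwinds the DNA. Mcm3 had a signal intensity of 229 and 217 on B6 arrays, 537 and 530 on untreated and 697 and 694 on vitamin E-treated ApoE-/- arrays. Its log2 fold change was 1.26 ± 0.08 (standard error) in untreated ApoE-/- versus B6 (adjusted p = 3.1e-05, limma) and 0.38 ± 0.08 in vitamin E-treated versus untreated ApoE-/- aortas (adjusted p = 0.017, limma). Mcm5 had 469 and 459 on B6 arrays, 980 and 929 on untreated and 1307 and 1235 on vitamin E-treated ApoE-/- arrays. Neither gene showed overlap between any pair of groups. Mcm4 went from 318 and 308 in B6 through 568 and 619 in untreated to 758 and 825 in vitamin E-treated ApoE-/- aortas. Mcm7 had 941 and 876, 1443 and 1372, and 2009 and 2105. Its rise from untreated to vitamin E-treated ApoE-/- aortas, 0.55 ± 0.07 on the log2 scale (adjusted p = 0.0027, limma), was the largest of the helicase genes. By the brightest probe sets, Mcm2 was the exception in the last step. Its vitamin E-treated arrays read 341 and 633, on either side of the untreated values of 437 and 503, and this gap between replicates was the widest of any tested member in that group. The other tested probe set of Mcm2 read 278 and 284.5 on untreated and 359 and 309 on vitamin E-treated arrays (adjusted p = 0.24, limma). For Mcm4 and Mcm6 the second tested probe sets did not pass in this step (adjusted p = 0.49 and 0.59, limma).

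Among the genes that bind origins and license them, Cdc6 and Cdt1 rose in untreated ApoE-/- versus B6 aortas and Orc6 did not pass. Cdc6, an ATPase that loads the helicase, had 39.9 and 28.3 on B6 arrays, 95.8 and 106 on untreated and 137 and 130 on vitamin E-treated ApoE-/- arrays. It was tested only through the ApoE-/- groups, in which it was higher. The first step was 1.59 ± 0.21 on the log2 scale (adjusted p = 0.001, limma), while the step to vitamin E, 0.40 ± 0.21, did not pass (adjusted p = 0.23, limma). Cdt1, its partner in loading, followed another course by its brightest probe set. Its values were 567 and 567 on B6 arrays, 665 and 673 on untreated and 958 and 1015 on vitamin E-treated ApoE-/- arrays. The first step was 0.24 ± 0.07 (adjusted p = 0.024, limma) and the second 0.56 ± 0.07 (adjusted p = 0.0023, limma). The other tested probe set of Cdt1 gave 0.75 (adjusted p = 0.0025, limma) and then 0.25 (adjusted p = 0.2, limma), with the larger step first as in Cdc6. Orc6, a subunit of the origin recognition complex, had 126 and 147, 158 and 171, and 180 and 195. Its groups did not overlap, and it passed only in vitamin E-treated ApoE-/- versus B6 aortas (adjusted p = 0.029, limma).

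Of the genes that activate the loaded helicase, Cdc45 rose in untreated ApoE-/- versus B6 aortas and the other 2 tested did not pass. All 3 were tested only through groups in which they were higher, so that their direction is in part set by the filter. Cdc45, which joins the Mcm ring to form the active helicase, rose from 62.8 and 67.3 in B6 to 108 and 110 in untreated ApoE-/- aortas (adjusted p = 0.0062, limma) and had 126 and 132 on vitamin E-treated ApoE-/- arrays. Gins1, a GINS subunit, had 91.6 and 73.2 on B6 and 93.2 and 96.7 on untreated ApoE-/- arrays, then 142 and 150 on vitamin E-treated arrays (adjusted p = 0.044 against untreated, limma). Mcm10, an initiation factor, had 81.8 and 70.0, 78.5 and 107, and 140 and 154, and the last step missed the threshold (adjusted p = 0.056, limma). Both passed in vitamin E-treated ApoE-/- versus B6 aortas, with log2 fold changes of 0.83 and 0.96.

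Of the sliding clamp and its loader, 4 of 5 genes rose in untreated ApoE-/- versus B6 aortas, and Pcna alone of the 5 rose in vitamin E-treated versus untreated ApoE-/- aortas. Pcna, the ring that tethers polymerases, had 1646 and 1555 on B6 arrays, 2311 and 2367 on untreated and 2817 and 3130 on vitamin E-treated ApoE-/- arrays. The groups were separate in both steps, at 0.55 ± 0.07 and 0.34 ± 0.07 on the log2 scale. The loader subunit Rfc5 went from 93.1 and 98.2 in B6 to 168 and 197 in untreated ApoE-/- aortas (adjusted p = 0.0015, limma), and Rfc3 from 62.1 and 73.2 to 108 and 121 (adjusted p = 0.01, limma). On vitamin E-treated arrays the values were 203 and 198 for Rfc5 and 121 and 139 for Rfc3, and the differences from untreated aortas did not pass. Both genes were tested only through the ApoE-/- groups, in which they were higher. Rfc4 passed in no comparison by its brightest probe set, whose vitamin E-treated arrays read 215 and 138.

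Most genes of the polymerases and primase rose in the first step. Pola1, Pola2, Prim2 and Pole2 were tested only through the ApoE-/- groups and Pole only through the vitamin E-treated one. These were the groups in which they were higher, so that their direction is in part set by the filter. In untreated ApoE-/- versus B6 aortas 6 of 8 rose, and the exceptions were Pole and Pold1, which encode the catalytic subunits of the leading and lagging strand polymerases. Prim2, the large primase subunit, rose from 79.4 and 68.8 in B6 to 158 and 162 in untreated ApoE-/- aortas, a log2 fold change of 1.12 ± 0.15 (adjusted p = 0.00099, limma), and had 198 and 174 on vitamin E-treated arrays. Pold2, an accessory subunit of polymerase delta, rose from 292 and 275 to 513 and 496 (0.83 ± 0.08, adjusted p = 0.00024, limma). It was the single tested member whose vitamin E-treated arrays, at 432 and 428, both lay below the untreated ones, a difference of −0.23 ± 0.08 that did not pass (adjusted p = 0.096, limma). Pole had 36.8 and 61.6, 80.2 and 66.2, and 146 and 125. Its step from untreated to vitamin E-treated ApoE-/- aortas, 0.89 ± 0.27, was the largest of all 35 genes and did not pass (adjusted p = 0.063, limma), and its B6 replicates were the farthest apart of any tested member. Pole2, the second subunit of polymerase epsilon, passed in both steps with 78.7 and 91.2, 142 and 112, and 180 and 229 (adjusted p = 0.043 and 0.047, limma). Pola1, Pola2 and Prim1, of the priming complex, rose by 0.65 to 0.70 on the log2 scale in untreated ApoE-/- versus B6 aortas.

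**Figure D2:**
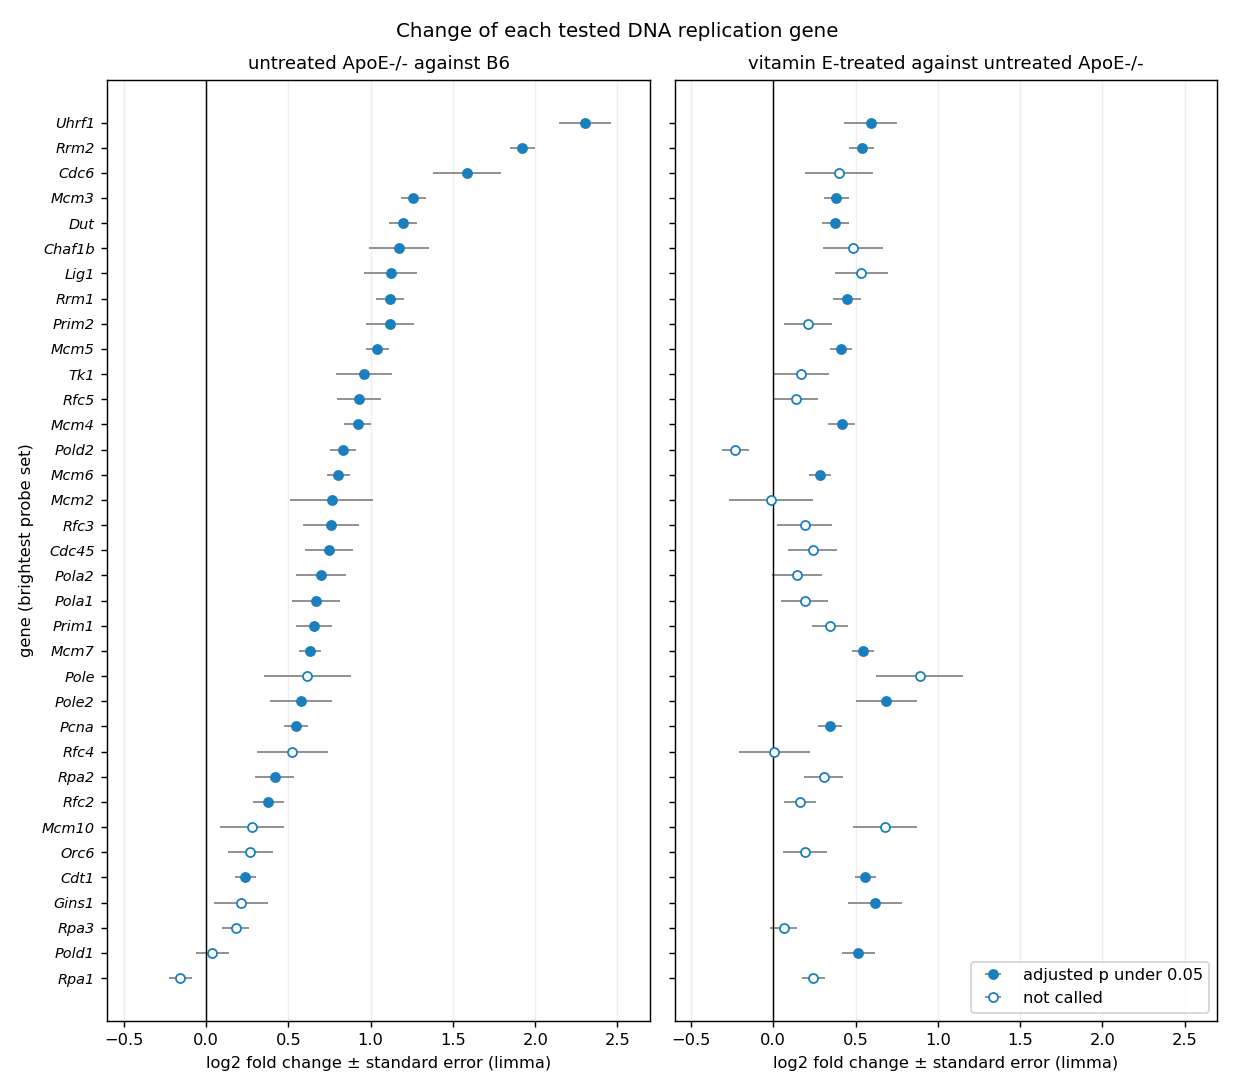
Log2 fold change of each tested DNA replication gene with its standard error, for untreated ApoE-/- versus B6 aortas (left) and vitamin E-treated versus untreated ApoE-/- aortas (right), in the order of the left panel; filled points have an adjusted p under 0.05. Changes on the left run from −0.16 for Rpa1 to 2.30 for Uhrf1 with 27 filled points, and those on the right from −0.23 to 0.89 with 14 filled points.

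Genes for nucleotide supply rose in 4 of 4 and genes for chromatin duplication in 2 of 2 in untreated ApoE-/- versus B6 aortas. Tk1 and Uhrf1 among them passed the filter only through the ApoE-/- groups, in which they were higher, and Chaf1b only through the vitamin E-treated one. Rrm2, the S-phase-regulated subunit of ribonucleotide reductase, had 237 and 221 on B6 arrays, 887 and 850 on untreated and 1306 and 1217 on vitamin E-treated ApoE-/- arrays. It rose by 1.92 ± 0.08 on the log2 scale in untreated ApoE-/- versus B6 (adjusted p = 4.7e-06, limma) and by a further 0.54 ± 0.08 with vitamin E (adjusted p = 0.0047, limma). Its partner subunit Rrm1 went from 194 and 204 through 450 and 415 to 597 and 583, and Dut, which removes dUTP from the pool, from 206 and 217 through 496 and 470 to 647 and 609. Both rose in both steps by their brightest probe sets. The other tested probe set of Rrm1 read 197 and 170 on untreated and 164 and 174 on vitamin E-treated ApoE-/- arrays, a step that did not pass (adjusted p = 0.6, limma). Tk1, thymidine kinase, rose by 0.96 ± 0.17 in untreated ApoE-/- versus B6 aortas (adjusted p = 0.004, limma), and its vitamin E-treated arrays, at 154 and 144, overlapped the untreated ones at 146 and 120. Uhrf1, which brings maintenance methylation to newly copied DNA, had 72.7 and 97.3 on B6 arrays, 442 and 389 on untreated and 578 and 677 on vitamin E-treated ApoE-/- arrays. Its log2 fold changes of 2.30 ± 0.16 (adjusted p = 5.8e-05, limma) and 0.59 ± 0.16 (adjusted p = 0.046, limma) make it the member with the largest rise in untreated ApoE-/- versus B6 aortas. Chaf1b, a subunit of the assembly factor that places histones behind the fork, had 35.3 and 41.3, 85.3 and 86.7, and 129 and 112, and passed in the first step (adjusted p = 0.0021, limma).

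Of the single-strand binding genes only Rpa2 rose in untreated ApoE-/- versus B6 aortas. Rpa1, Rpa2 and Rpa3 encode the trimer that coats unwound DNA in replication and also in repair. Rpa1 had 2504 and 2389 on B6 arrays, 2185 and 2202 on untreated and 2477 and 2723 on vitamin E-treated ApoE-/- arrays, and it was the single tested member whose untreated ApoE-/- arrays both lay below the B6 arrays (−0.16 ± 0.07 on the log2 scale, adjusted p = 0.11, limma). Its fall passed when the spread was taken from B6 and untreated ApoE-/- arrays alone or when either vitamin E-treated array was left out. The other tested probe set of Rpa1 went the other way, with 699 and 643 on B6 and 819 and 709 on untreated ApoE-/- arrays (0.18 ± 0.09, adjusted p = 0.15, limma). Rpa3 differed by 0.18 ± 0.08 (adjusted p = 0.11, limma). Rpa2 rose from 210 and 202 to 293 and 257 (adjusted p = 0.027, limma) and had 314 and 368 with vitamin E. Lig1, the replicative ligase, rose from 175 and 130 in B6 to 313 and 344 in untreated ApoE-/- aortas, 1.12 ± 0.16 on the log2 scale (adjusted p = 0.0015, limma), and had 434 and 522 with vitamin E, a step of 0.54 ± 0.16 that did not pass (adjusted p = 0.064, limma).

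Several members are read by more than 1 tested probe set, which gives a second reading of the same RNA pools and no further replicate. For 16 genes there were 37 such probe sets. In untreated ApoE-/- versus B6 aortas all probe sets of a gene had the same sign in 14 of 16 genes and were all called higher in 11, with 21.7% of all probe sets called higher, and no gene had probe sets called in opposite directions. The exceptions in sign were Prim1, whose other probe set read 181 and 184 on B6 and 147 and 121 on untreated ApoE-/- arrays (adjusted p = 0.27, limma), and Rpa1. The size of the change depended on the probe set. The 4 probe sets of Mcm7 gave log2 fold changes of 0.63, 1.29, 0.71 and 1.41 in this comparison. For Pold1 the brighter probe set gave 0.04 (adjusted p = 0.78, limma) and the other 0.83 (adjusted p = 0.005, limma), and for Cdt1 they gave 0.24 and 0.75. In vitamin E-treated versus untreated ApoE-/- aortas the order turned, with 0.52 and 0.15 for Pold1 and 0.56 and 0.25 for Cdt1, so that the step in which these genes rose most differed between their probe sets. In this comparison 14 of 16 genes had 1 sign and 2 were called higher on all their probe sets (8.52% of all probe sets), with Mcm2 and Rrm1 as exceptions in sign. In vitamin E-treated ApoE-/- versus B6 aortas all 16 genes had 1 sign and 12 were called higher on all their probe sets (21.9% of all probe sets). Rfc4 and Rpa1, which did not pass here by their brightest probe sets, were each called higher by the other one, at 0.58 and 0.34 on the log2 scale (adjusted p = 0.029 and 0.024, limma).

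**Figure D3:**
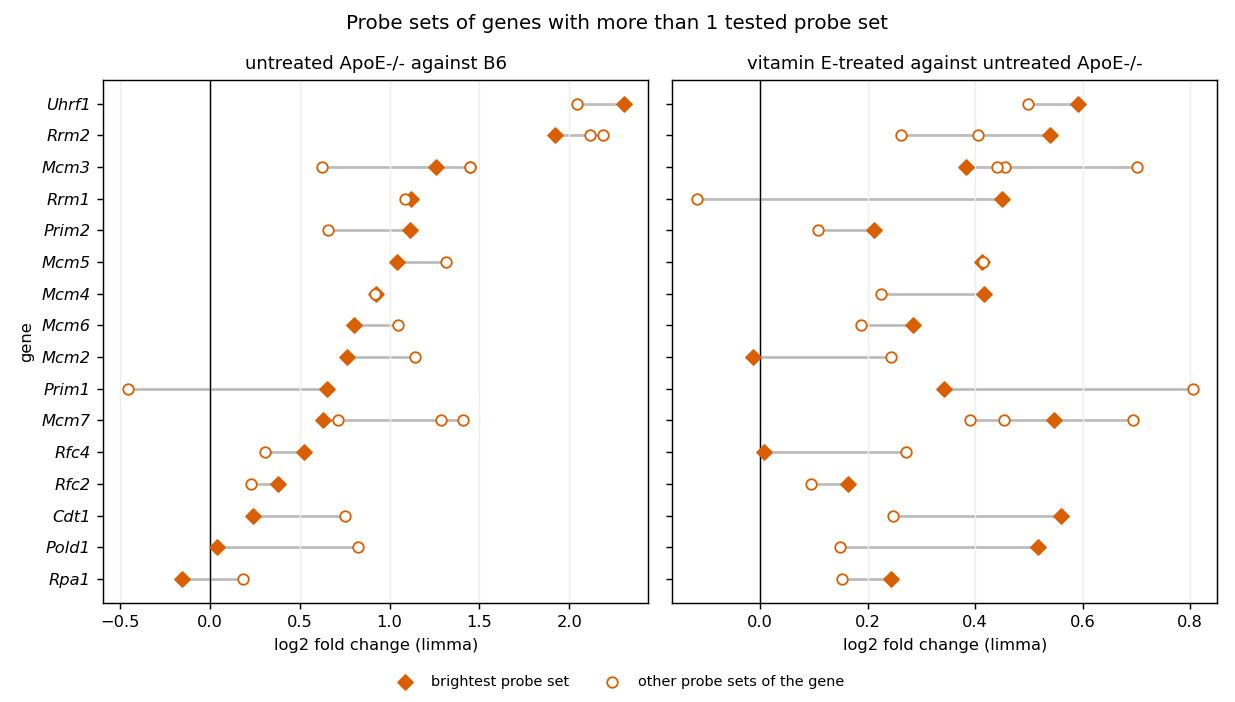
Log2 fold change of every tested probe set of the 16 DNA replication genes with more than 1, for untreated ApoE-/- versus B6 aortas (left) and vitamin E-treated versus untreated ApoE-/- aortas (right); diamonds mark the brightest probe set and lines join the probe sets of a gene. The widest gap on the left is that of Prim1, at 1.11 on the log2 scale.

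Genes around the replication machinery were read from the same fit. Of 36 tested further replication genes (fork proteins, kinases, accessory subunits), 18 rose and 1 fell in untreated ApoE-/- versus B6 aortas (21.2% and 20.8% of all genes), and 7 rose and none fell in vitamin E-treated versus untreated ApoE-/- aortas (8.18% and 7.65% of all genes). Their median log2 fold changes were 0.35 and 0.18. Of the 36 genes, 29 reached a mean of 100 in all 3 groups. Of these 29, 13 rose and 1 fell in the first step, and 4 rose in the second. The other 7, among them Clspn, were tested only through groups in which they were higher. The direction of these 7 is in part set by the filter. Fen1, the flap endonuclease of lagging strand synthesis, depended on the probe set. The brighter probe set read 342 and 275 on B6, 5466 and 3365 on untreated and 3064 and 3373 on vitamin E-treated ApoE-/- arrays, and the other 120 and 131, 259 and 210, and 293 and 313. The first of them rose by 3.81 ± 0.21 and the second by 0.90 ± 0.14 on the log2 scale in untreated ApoE-/- versus B6 aortas (adjusted p = 2.1e-05 and 0.0019, limma). Dck, a kinase of the nucleoside salvage pathway, had 267 and 261, 722 and 711, and 1201 and 878. Clspn, a fork checkpoint mediator, had 51.3 and 40.3, 114 and 128, and 197 and 221. Both rose in both steps. Rrm2b, the reductase subunit used outside S phase, was the 1 gene that fell, from 310 and 341 in B6 to 256 and 239 in untreated ApoE-/- aortas (adjusted p = 0.016, limma).

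Among genes that control entry into S phase, 13 of 27 tested rose and 3 fell in untreated ApoE-/- versus B6 aortas (21.2% and 20.8% of all genes), and 8 rose and 1 fell in vitamin E-treated versus untreated ApoE-/- aortas (8.18% and 7.65% of all genes), with median log2 fold changes of 0.30 and 0.20. Of the 27 genes, 22 reached a mean of 100 in all 3 groups. Of these 22, 9 rose and 3 fell in the first step, and 6 rose and 1 fell in the second. The other 5, among them Ccne1 and E2f2, were tested only through groups in which they were higher. The direction of these 5 is in part set by the filter. Ccne1, cyclin E1, rose from 73.4 and 60.8 to 348 and 354 (2.39 ± 0.17, adjusted p = 6.1e-05, limma) and had 296 and 222 with vitamin E. E2f5 rose from 214 and 253 to 1166 and 2099, with a wide gap between its untreated replicates, and had 1218 and 737 with vitamin E. E2f2 rose from 65.8 and 78.0 to 330 and 198 and had 393 and 392. The cell cycle inhibitors Cdkn1a and Cdkn2c were called in opposite directions in the 2 steps. Cdkn1a, which encodes p21, had 990 and 1048 on B6 arrays, 472 and 460 on untreated and 703 and 820 on vitamin E-treated ApoE-/- arrays, with log2 fold changes of −1.13 ± 0.09 (adjusted p = 9.6e-05, limma) and 0.71 ± 0.09 (adjusted p = 0.0028, limma). Cdkn2c had 1562 and 1552, 980 and 906, and 1157 and 1363.

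Of 26 tested mitosis genes, 25 rose in untreated ApoE-/- versus B6 aortas, 14 in vitamin E-treated versus untreated ApoE-/- aortas and all 26 in vitamin E-treated ApoE-/- versus B6 aortas. The shares of all genes called higher were 21.2%, 8.18% and 21.1%. Only 11 of the 26 reached a mean of 100 in all 3 groups, of which 11, 9 and 11 rose in this order, and the other 15 were tested only through the groups in which they were higher. The median log2 fold changes over all 26 were 1.44 and 0.54 in the first 2 comparisons, beside 0.75 and 0.34 for the replication genes, and the difference between the lists was not tested. Top2a, the topoisomerase that untangles sister chromatids, had 210 and 182 on B6 arrays, 765 and 768 on untreated and 1128 and 1197 on vitamin E-treated ApoE-/- arrays. Kif11, a spindle motor, rose from 38.0 and 27.1 to 138 and 120 and had 174 and 163. Aurkb, a mitotic kinase, rose from 28.4 and 43.2 to 172 and 185 and had 159 and 211, on either side of the untreated values.

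Markers of immature thymocytes and T cells rose along with the replication genes. Of the markers of immature thymocytes, cells of the thymus that divide rapidly, all 8 tested rose in ApoE-/- versus B6 aortas, whether untreated or treated (21.2% and 21.1% of all genes). In vitamin E-treated versus untreated ApoE-/- aortas 4 of 8 rose (8.18% of all genes). Of these 8, 6 passed the filter only through the ApoE-/- groups in which they were higher. The direction of these 6 is in part set by the filter. The other 2, Ccr9 and Satb1, rose in all 3 comparisons. The summed signal intensity over 9 marker genes was 915 to 955 on B6 arrays, 6660 to 7580 on untreated and 12440 to 12530 on vitamin E-treated ApoE-/- arrays. Most of the sum on the B6 arrays came from Satb1, with 626 and 652, followed by Ccr9, with 121 and 115. Rag1, a recombinase of developing lymphocytes, was under 20 on both B6 arrays, read 1887 and 2060 on untreated and 2940 and 3020 on vitamin E-treated ApoE-/- arrays, and its signal in untreated ApoE-/- aortas was at least 98.6-fold higher than 20, the value set for B6. Rag2 and Tbata were under 20 on both B6 arrays as well. T cell markers rose in 7 of 9 genes, then in 5 of 9 and, versus B6, in all 9 (21.2%, 8.18% and 21.1% of all genes). Of these 9 genes 1, Cd4, was tested only through the ApoE-/- groups, in which it was higher. The sums of the T cell markers were 2474 to 2526, 5089 to 5128 and 7535 to 7615. The summed signal of the 38 replication genes was 10810 to 11160, 16640 to 16710 and 20810 to 21850 in this order, so that the groups were separate in the same sequence for all 3 lists. The part of these cells in the rise of the replication genes was not tested.

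Markers of other cells took the same or other courses. Of all genes, 21.2% were called higher and 20.8% lower in the first step, and 8.18% and 7.65% in the second. B cell markers rose in 6 of 6 genes in untreated ApoE-/- versus B6 aortas and in none of 6 with vitamin E. Their sums of 3506 to 3587, 5788 to 5995 and 6153 to 6598 were separate in the same sequence as those of the replication genes. So were the sums of the erythroid markers (385 to 387, 555 to 564 and 618 to 667). Macrophage markers rose in 4 of 6 and then in none, with sums of 8691 to 8766 on B6, 12410 to 12630 on untreated and 11340 to 11980 on vitamin E-treated ApoE-/- arrays. Sums of contractile smooth muscle markers were 20780 to 21460, 19470 to 20150 and 17430 to 18400, and those of endothelial markers 2609 to 2662, 2617 to 2664 and 2209 to 2421. Genes typical of skeletal muscle, stratified epithelium, liver and heart also differed between groups, and which cells they came from was not tested. Skeletal muscle markers fell in all 8 genes and then rose in all 8. Markers of the basal layer of stratified epithelium fell in 5 of 8 and then rose in 7 of 8. Of these 8, 1 was tested only through some groups. Liver markers fell in all 8 and rose in 7 of 8, with 4 of the 8 tested only through some groups. Cardiac muscle markers rose in all 8 and fell in 7 of 8. Their summed signals in untreated ApoE-/- aortas were 0.537, 0.766, 0.0529 and 1.81 times those in B6 aortas, in this order. Of the erythroid markers only Alas2 was tested, with 306 and 295, 442 and 440, and 503 and 539. For no list were all defining markers under 20 on every array, and the part of these tissues in the results was not tested.

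**Figure D4:**
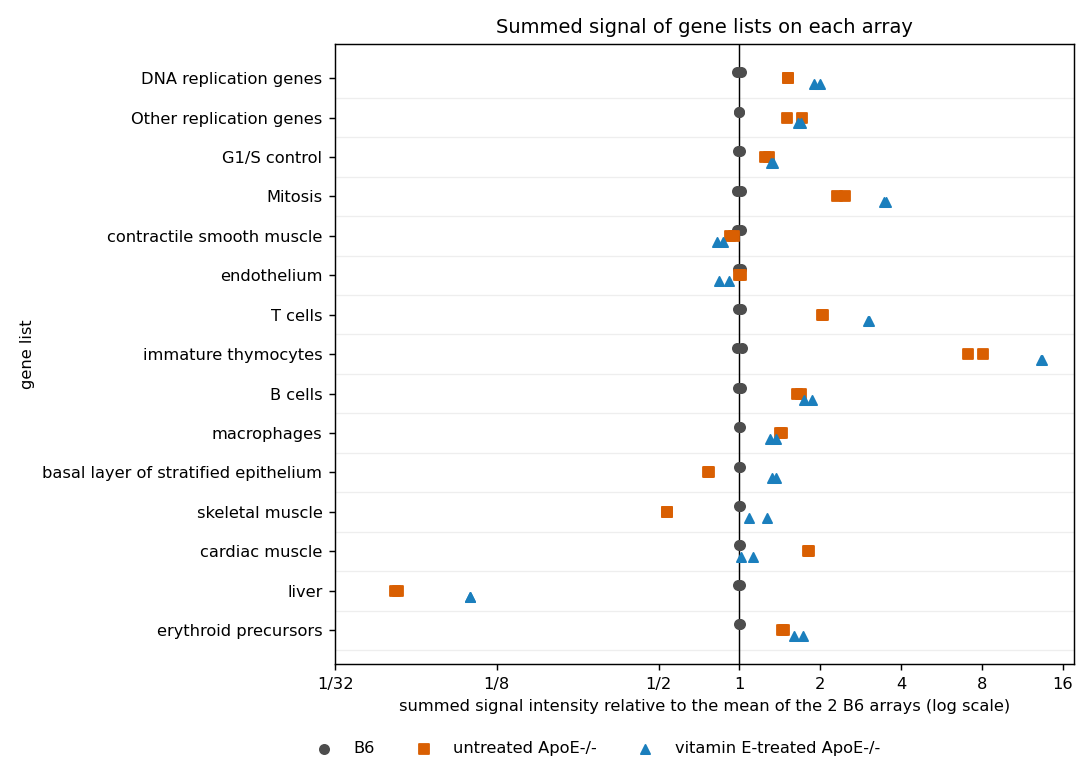
Summed signal intensity of each gene list on each of the 6 arrays, divided by the mean of the 2 B6 arrays, on a log axis. The replication, mitosis, T cell and immature thymocyte lists rise from B6 (circles) through untreated (squares) to vitamin E-treated ApoE-/- arrays (triangles), by 1.52, 2.39, 2.04 and 7.62 times in the first step and 1.28, 1.46, 1.48 and 1.75 times in the second. The G1/S control, B cell and erythroid lists also rise in this order, by 1.26, 1.66 and 1.45 times and then by 1.05, 1.08 and 1.15 times.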

How the data were processed

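RNA of whole aortas was hybridised to Affymetrix Mouse Genome 430 2.0 arrays. Per the labels, the authors computed signal intensity with GCOS, scaled per array; the deposited values are linear, 1 per probe set and array. Probe sets were named from the annotation of the array (34945 with 1 symbol, 932 with several, 9160 with none, 64 controls left out), and 34741 matched RefSeq. A floor of 20 was applied before log2. Probe sets with a group mean of at least 100 in 1 group were fitted with limma 3.58.1 in R 4.3.3 to all 6 arrays (3 residual and 4.46 prior degrees of freedom, intensity trend). Genes named are the 2 with the largest change per role and comparison, and from related lists the 3 largest and any called in opposite directions; further genes were chosen after their values were seen. The members and lists were chosen with earlier results of these data known. The number of arrays limits the precision. The fit was tested on simulated data. Captopril-treated aortas were not analysed here. Alternatives were quantile normalization, median centring, other floors and filters, no trend, 4 arrays, a replicate block, each array left out, every probe set, and the methods' t-test.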

Additional observations from a re-analysis of the deposited data

Results flagged for a closer look

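Tyms, thymidylate synthase, was among the members not tested, since its probe sets with a single symbol stayed under the minimum. A further probe set, annotated to both Tyms and a Tyms pseudogene, lay outside the comparisons above and carried signal over that of the B6 arrays. It read 79.9 and 72.3 on B6 arrays, 182 and 172 on untreated and 211 and 221 on vitamin E-treated ApoE-/- arrays. The signal in untreated ApoE-/- aortas was thus 2.33 times and that in vitamin E-treated ApoE-/- aortas 2.84 times that in B6 aortas, and the gene and the pseudogene cannot be told apart.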

How the results depend on the processing

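The numbers of replication genes called were 27, 14 and 33 for untreated ApoE-/- versus B6, vitamin E-treated versus untreated ApoE-/-, and vitamin E-treated ApoE-/- versus B6 aortas. Leaving out 1 array at a time gave 20 to 29, 3 to 12 and 30 to 32, and the low values of the second comparison came without an untreated ApoE-/- array. The replicate number as a block gave 26, 10 and 32, and the numbers do not mark shared animals in the labels; deviations of same-numbered arrays correlated at −0.098 to 0.055. Without a filter on low values the second comparison gave 3. With every probe set counted, 44 and 52 of 56 were called in the first and last comparison. The methods' t-test at the methods' thresholds gave 7, 0 and 11 genes, and after Benjamini-Hochberg 11, 0 and 0, with 26, 18 and 30 genes at an unadjusted p under 0.05; limma at the same thresholds gave 10, 0 and 17. Quantile normalization gave 24, 13 and 30, and median centring 24, 14 and 31. Fits that took the spread without 1 or both vitamin E-treated arrays called Rpa1 lower in the first comparison. For single genes named, 986 values across alternatives kept direction and side of the threshold, 79 lost the call, 6 gained it and none turned. Why the counts moved was not tested.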
